A study of Mus musculus with 6 samples.

Results

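The genes described here are the 10 genes of the classical MHC class I pathway: the heavy chains H2-K1 and H2-D1, the light chain B2m, the peptide transporter genes Tap1 and Tap2, tapasin (Tapbp), the immunoproteasome subunits Psmb8, Psmb9 and Psmb10, and the transactivator Nlrc5. They were chosen by gene symbol, and all 10 were found among the 18437 genes measured. RNA-seq libraries were made from tongue tumours of C57BL/6 mice that had been injected in the tongue with 4MOSC1 cells, a mouse oral squamous cell carcinoma line. The control group (4MOSC1-con, genotype control) has 3 libraries, and the LIGHT group (4MOSC1-LIGHT, the same line with overexpression of LIGHT, a TNF-family cytokine and the product of Tnfsf14) has 3. Every tumour came from 1 parental line in the same host strain, and the hosts had no stated deletion or drug treatment. No label names the mouse behind a library, and p-values therefore describe the spread among these samples, which may be technical.

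Classical class I molecules display peptides from inside the cell to CD8 T cells. Proteasomes cut proteins into peptides, the TAP transporter carries the peptides into the endoplasmic reticulum, and tapasin helps load them onto a heavy chain paired with beta-2 microglobulin. Interferon gamma induces the pathway, partly through Nlrc5, a protein that assembles with the RFX complex on class I promoters, and tumours can lose any of these steps.

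Levels are given in TPM, which scale each gene by its length and each library to a common total, so they can be compared between genes. Sequencing depth is unknown. Tnfsf14 was at 0.66, 0.53 and 0.79 TPM in control replicates 1, 2 and 3 and at 26.2, 25.9 and 23.9 TPM in LIGHT replicates 1, 2 and 3, which matches the labels. The keratins Krt5 and Krt14, which mark squamous epithelium and not carcinoma alone, lay between 4151 and 12469 TPM in the 6 libraries.

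In LIGHT tumours Tap1, Tap2, Tapbp, Psmb8 and Psmb10 rose, 5 of the 10 genes, and 0 fell (limma, adjusted p under 0.05). At an unadjusted p under 0.05 limma had 6 higher, Nlrc5 being the addition, and 0 lower. H2-K1, H2-D1, B2m, Psmb9 and Nlrc5 did not pass the adjusted threshold, which does not show that they were unchanged. Over all 13167 genes tested, 17.7% were called higher and 5.41% lower (limma on log2(TPM + 1), adjusted p under 0.05). The median log2 fold change was 0.44 over the 10 genes and 0.09 over all tested genes. In 6 of the 10 genes all LIGHT libraries lay above all control libraries, as they did in 29.6% of all tested genes. The count of 5 is sensitive to single libraries: it was 2 without control replicate 1, control replicate 3, LIGHT replicate 1 or LIGHT replicate 2, 4 without LIGHT replicate 3 and 6 without control replicate 2. Tap2 and Tapbp were called each time a library was left out. Leaving out any of control replicates 1 and 3 and LIGHT replicates 1 and 2 ended the call of Psmb8, Psmb10 and Tap1, as leaving out LIGHT replicate 3 did for Tap1 (limma adjusted p from 0.0525 to 0.11).

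**Figure D1:**
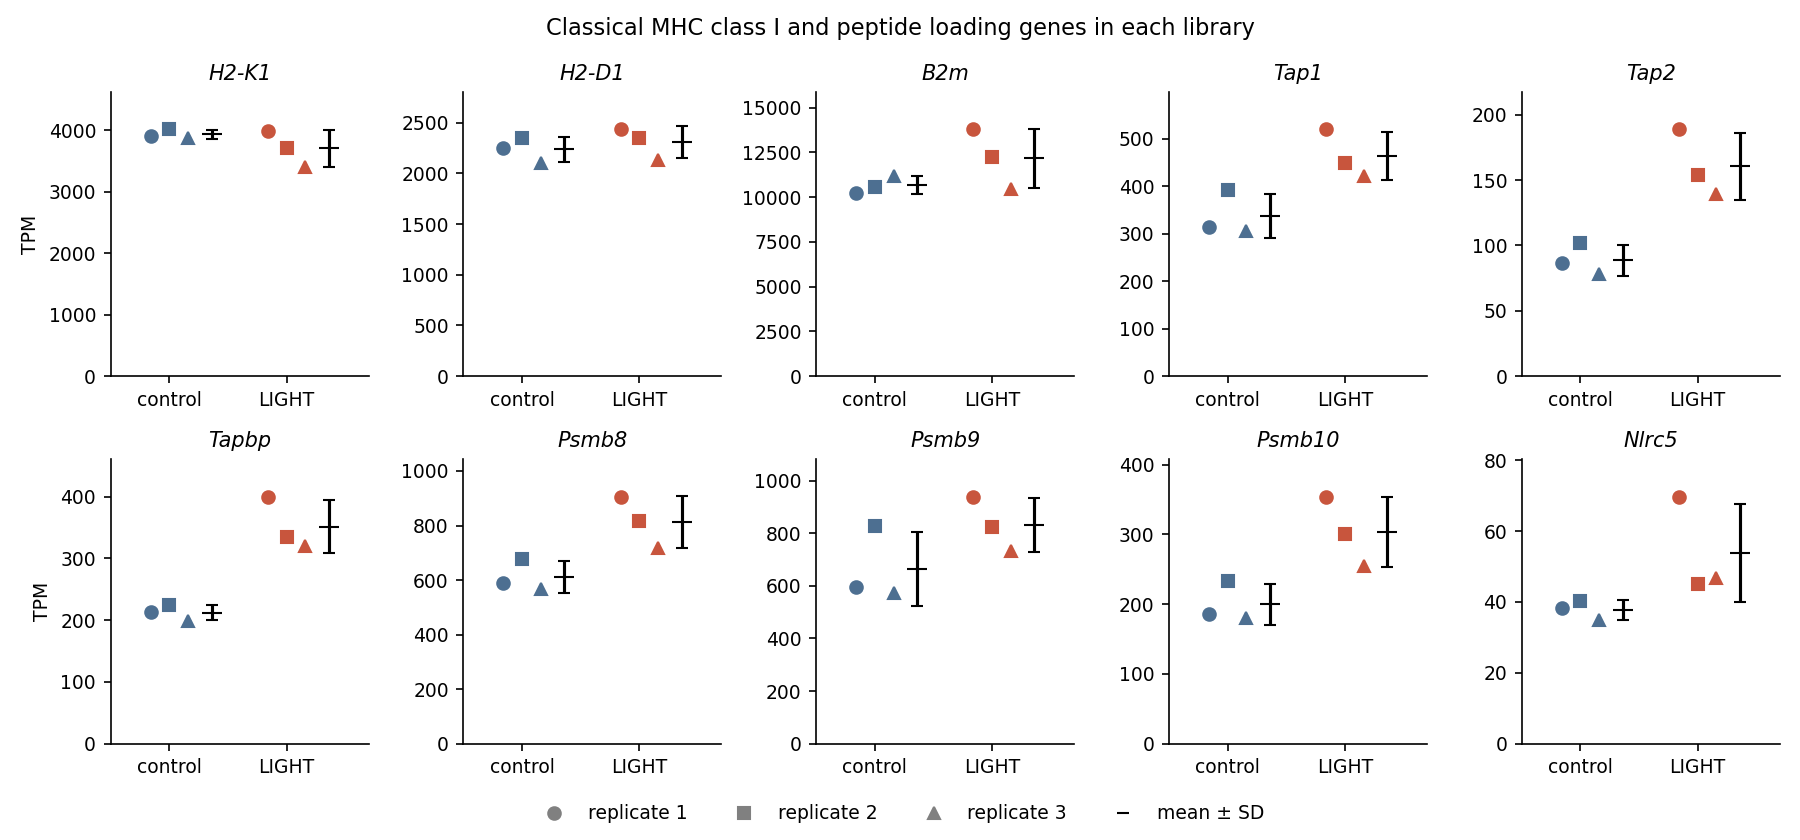
TPM of the 10 class I pathway genes in each of the 3 control and 3 LIGHT libraries, 1 panel per gene with its own axis from 0. Points are libraries and the bar is the mean ± SD. The groups overlap for H2-K1, H2-D1, B2m and Psmb9 and do not overlap for the other 6 genes.

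The 2 heavy chains bind the peptide and are what a T cell receptor sees. H2-K1 (chromosome 17, 33996012 to 34000619, GRCm38.p6, minus strand) was at 3913, 4020 and 3873 TPM in the control libraries and 3995, 3715 and 3404 TPM in the LIGHT libraries. LIGHT replicate 3 was the lowest of the 6, and the groups overlapped. The log2 fold change was -0.09 (SE 0.09, 95% interval -0.30 to 0.12, limma adjusted p = 0.504). H2-D1 (chromosome 17, 35263094 to 35267497) was at 2253, 2351 and 2106 TPM in control tumours and 2437, 2350 and 2132 TPM in LIGHT tumours. Its groups overlapped almost fully, at 0.04 on the log2 scale (SE 0.09, 95% interval -0.16 to 0.25, limma adjusted p = 0.761), which became -0.09 under trimmed-mean scaling. The intervals exclude a rise of the size seen for Tap2 in either heavy chain, but they do not show that the levels were equal. The ratio of H2-D1 to H2-K1 within a library was 0.576, 0.585 and 0.544 in control tumours and 0.610, 0.633 and 0.626 in LIGHT tumours. The LIGHT values were all above the control values, which is given as a description because this ratio was not among the 11 tested.

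B2m, the light chain shared by all class I molecules (chromosome 2, 122147687 to 122153082), was among the most abundant transcripts, ranked 7 by mean TPM in control and 2 in LIGHT tumours. It was at 10211, 10572 and 11196 TPM in the control libraries and 13800, 12212 and 10460 TPM in the LIGHT libraries. LIGHT replicates 1 and 2 were above every control library, while LIGHT replicate 3 fell within the control range. The log2 fold change was 0.18 (SE 0.12, 95% interval -0.09 to 0.46, limma adjusted p = 0.31).

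The promoters of these 3 genes are shown because they share a module that the other promoters read here did not hold. Each line gives the 250 bases before an annotated start site, 5′ to 3′ on the gene's strand, from RefSeq on GRCm38.p6, and the last line gives the 225 bases between the divergent starts of Psmb9 and Tap1 on the plus strand. The regions are chr17:34000348-34000597 (minus strand), chr17:35262844-35263093, chr2:122147437-122147686 and chr17:34187331-34187555. For H2-K1 the table has 2 start sites, 34000347 and 34000333, both inside the gene record, which reaches 272 bases further upstream than the first. The window of the first is shown, and that of the second held the spaced pair described next as well. Capitals mark 4 motifs searched on both strands: GGGNNTTNC, the core of an NF-kB site; AANNGAAA, the core bound by interferon regulatory factors; TGACG, a core bound by CREB and ATF proteins; and CCAAT, the NF-Y box, which reads ATTGG on the other strand. No match of 1 motif overlapped a match of another.
H2-K1: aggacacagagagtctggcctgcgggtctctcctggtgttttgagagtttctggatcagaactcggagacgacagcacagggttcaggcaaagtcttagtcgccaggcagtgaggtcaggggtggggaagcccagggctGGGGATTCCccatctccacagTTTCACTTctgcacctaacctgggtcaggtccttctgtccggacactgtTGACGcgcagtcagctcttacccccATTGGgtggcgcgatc
H2-D1: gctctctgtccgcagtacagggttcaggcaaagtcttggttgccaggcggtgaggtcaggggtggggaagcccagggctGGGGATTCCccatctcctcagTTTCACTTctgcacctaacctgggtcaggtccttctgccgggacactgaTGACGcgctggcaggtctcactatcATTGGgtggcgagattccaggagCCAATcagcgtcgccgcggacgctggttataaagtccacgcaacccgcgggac
B2m: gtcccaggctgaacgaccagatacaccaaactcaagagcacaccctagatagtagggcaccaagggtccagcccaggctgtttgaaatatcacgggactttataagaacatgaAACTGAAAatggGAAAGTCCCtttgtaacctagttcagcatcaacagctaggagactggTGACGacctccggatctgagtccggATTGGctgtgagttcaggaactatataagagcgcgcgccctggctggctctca
Psmb9-Tap1: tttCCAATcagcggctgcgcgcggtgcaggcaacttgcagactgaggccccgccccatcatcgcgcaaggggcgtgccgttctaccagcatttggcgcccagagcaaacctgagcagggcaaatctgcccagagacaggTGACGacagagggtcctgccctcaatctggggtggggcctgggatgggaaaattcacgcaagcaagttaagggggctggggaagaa

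In H2-K1, H2-D1 and B2m the TGACG was followed by exactly 20 bases and then ATTGG, starting 41, 101 and 78 bases before the start site. In the textbook MHC promoter module, on which RFX, NF-Y and Nlrc5 assemble, the X2 and Y boxes have these letters. The pair at this spacing was found in 0.0913% of the 32841 windows of 250 bases in the RefSeq table, belonging to 26 genes. Those 26 genes included H2-K1, H2-D1 and B2m themselves, so the share is not independent of them, and H2-M3, a nonclassical class I gene. Of the 20 that were tested 3 were higher and 1 was lower, where 17.7% and 5.41% of all tested genes were. All 3 promoters also held the NF-kB motif, found in 13.0% of windows, and the interferon regulatory factor core, found in 21.3%. In H2-K1 and H2-D1 the NF-kB match was the same GGGGATTCC, and 87.4% of 190 aligned bases were identical between the 2 promoters.

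The windows of Tap1, Psmb9, Tapbp, Psmb8 and Psmb10 held neither the spaced pair nor the NF-kB motif nor the interferon regulatory factor core. Each of these windows follows 1 RefSeq start. GENCODE gene records reach further upstream, most for Tapbp (to 33915899), Psmb8 (34197721) and Psmb9 (34187764). The 250 bases before those edges were not searched, so the absence holds for the RefSeq windows only. It also holds only for the letters searched, and other forms of these motifs were not tried. The Psmb9-Tap1 segment held 1 TGACG and 1 CCAAT, motifs found in 17.8% and 33.9% of windows. Psmb8 held TTCNNNGAA, the site bound by STAT dimers, as did 7.02% of windows. Of the 10 genes, 8 had a window, and Tap2 and Nlrc5 had none. A match is a description of letters within 250 bases, not of a bound site.

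Tap1 and Tap2 encode the paired chains of the transporter and lie with Psmb9 and Psmb8 in a stretch of 34.3 kb on chromosome 17 (34182030 to 34216321), inside the class II region. Tap1 was at 314, 391 and 307 TPM in the control libraries and 520, 449 and 422 TPM in the LIGHT libraries. The groups did not overlap, and control replicate 2 came nearest to the LIGHT libraries. Tap1 rose by 0.46 on the log2 scale (limma adjusted p = 0.0331, SE 0.12). Tap2 was at 86.9, 102 and 77.9 TPM in control tumours and 189, 154 and 139 TPM in LIGHT tumours. The groups did not overlap, although the LIGHT libraries differed among themselves by more than the gap between the groups. Its log2 fold change of 0.85 was the largest of the 10 genes (SE 0.14, limma adjusted p = 0.0067). Tap1 remained the more abundant chain, at a mean of 464 against 161 TPM in LIGHT tumours. The call of Tap1 was lost in 10 of 16 other settings, both other scalings among them, and that of Tap2 in 1, the skeletal muscle covariate (limma adjusted p = 0.0563).

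Tapbp bridges the transporter and the empty heavy chain (chromosome 17, 33919478 to 33929290). It was at 213, 224 and 199 TPM in the control libraries and 400, 334 and 319 TPM in the LIGHT libraries. The lowest LIGHT library was well above the highest control library. The log2 fold change was 0.72 (SE 0.10, limma adjusted p = 0.00444), and the call held in all 16 other settings. Tapbpl, the tapasin-related peptide editor and no member of the 10, went from 57.1 ± 7.63 to 105 ± 23.4 TPM (mean ± SD, n = 3 each), a log2 fold change of 0.86 (limma adjusted p = 0.0112). Of 5 genes in the list of endoplasmic reticulum chaperones and loading factors it was the 1 that rose, a share near the 17.7% of all tested genes. Calr, Canx and Pdia3, the chaperones calreticulin and calnexin and the oxidoreductase of the loading complex, had log2 fold changes of 0.18, -0.09 and 0.20 and did not pass the test. Of 6 peptide-trimming genes limma called 0 in either direction (0 at an unadjusted p under 0.05). Among them Erap1, the aminopeptidase that trims peptides in the endoplasmic reticulum, was at 38.0 and 45.1 TPM.

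**Figure D2:**
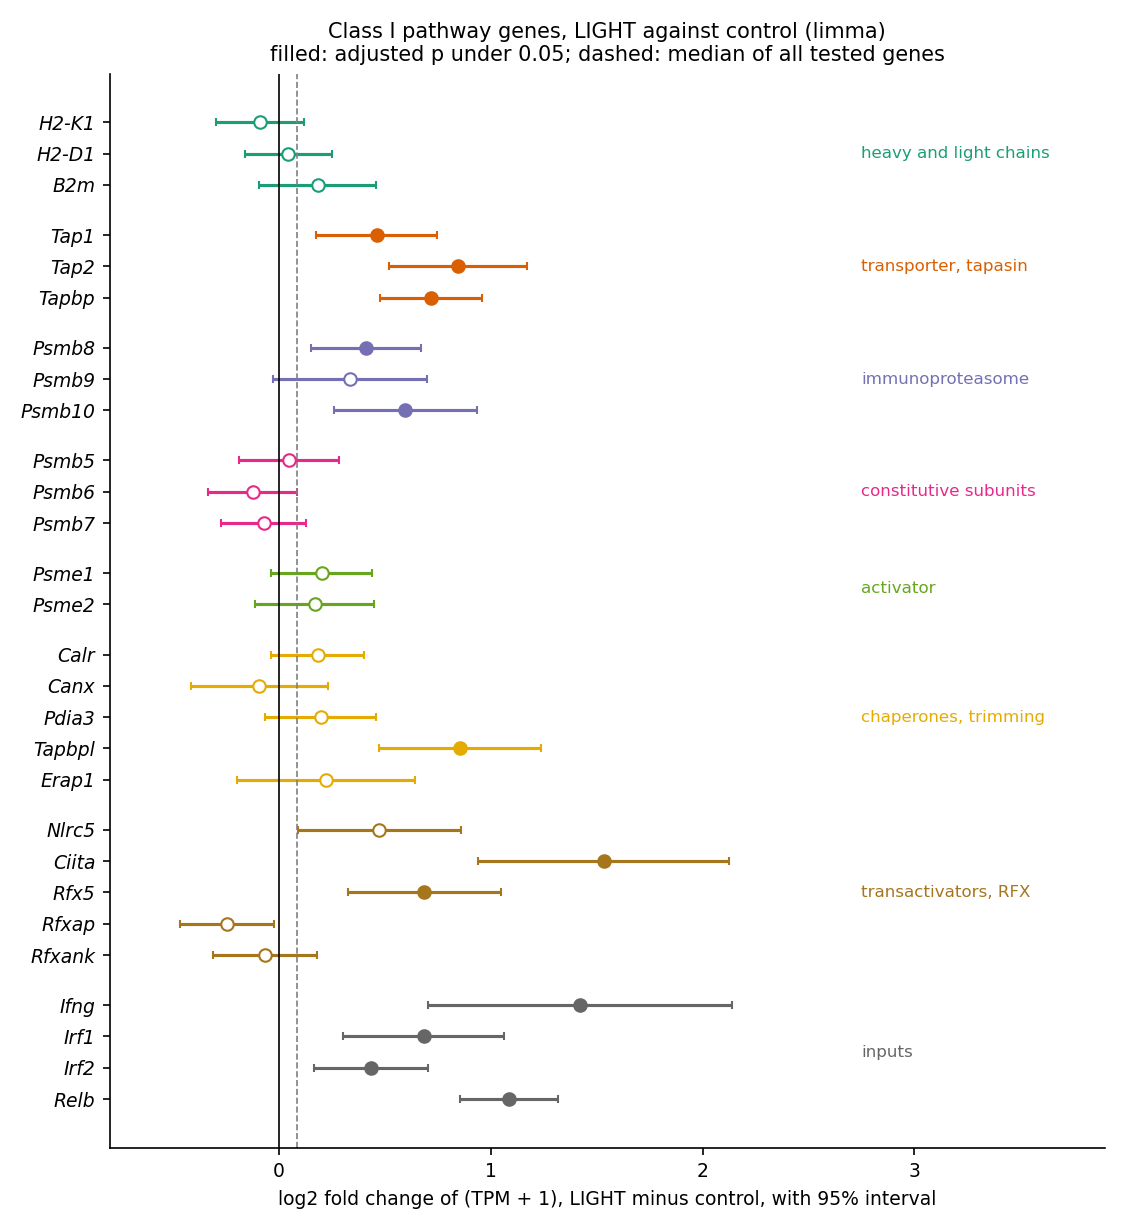
Log2 fold changes of (TPM + 1) between LIGHT and control tumours with 95% limma intervals, for the 10 class I genes and named pathway genes, coloured by role. Filled points passed an adjusted p under 0.05, and the dashed line is the median of all tested genes, 0.09. Tap2, Tapbp and Tapbpl lie well to the right of the heavy chains and of the constitutive proteasome subunits.

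The immunoproteasome subunits replace the constitutive catalytic subunits in cells exposed to interferon gamma and change which peptides are cut. Psmb8 (chromosome 17, 34198195 to 34201454) was at 588, 678 and 568 TPM in the control libraries and 906, 816 and 717 TPM in the LIGHT libraries. The groups did not overlap, although control replicate 2 and LIGHT replicate 3 were close. The rise was 0.41 on the log2 scale (SE 0.11, limma adjusted p = 0.0366). Psmb9, on chromosome 17 from 34182030 to 34187330, was at 595, 827 and 574 TPM in control tumours and 940, 822 and 734 TPM in LIGHT tumours. Control replicate 2 lay above 2 of the LIGHT libraries, so the groups overlapped. Psmb9 missed the threshold with a log2 fold change of 0.33 (95% interval -0.03 to 0.70, limma adjusted p = 0.166), and without control replicate 2 it passed at 0.50 (limma adjusted p = 0.0418). Psmb10 (chromosome 8, 105935728 to 105938392) was at 185, 233 and 180 TPM in control tumours and 354, 300 and 254 TPM in LIGHT tumours. Every LIGHT library was above every control library, and the log2 fold change was 0.60 (SE 0.15, limma adjusted p = 0.0247).

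The calls of Psmb8 and Psmb10 were lost in 9 and 8 of 16 other settings, among them both other scalings. The constitutive partners Psmb5, Psmb6 and Psmb7 were at means of 130, 251 and 221 TPM in control and 135, 230 and 209 TPM in LIGHT tumours, and limma called 0 of the 3 (0 at an unadjusted p under 0.05). Of 11 other core particle subunits limma called 0 (0 at an unadjusted p under 0.05), and their median was 0.07 on the log2 scale. The activator subunits Psme1 and Psme2, which open the core to peptides, had log2 fold changes of 0.20 and 0.17 and did not pass (limma adjusted p = 0.198 and 0.356).

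Each inducible subunit takes the place of 1 constitutive subunit, so their ratio within a library was compared. Psmb10 to Psmb7 was 0.778, 1.05 and 0.898 in the control libraries and 1.62, 1.48 and 1.23 in the LIGHT libraries. Psmb10 thus went from below or near its partner to above it in every LIGHT library. Psmb9 to Psmb6 was 2.31, 3.09 and 2.51 in control tumours and 4.11, 3.36 and 3.39 in LIGHT tumours, again without overlap. Psmb8 to Psmb5 was 4.48, 5.17 and 4.41 in control tumours and 7.33, 6.45 and 4.60 in LIGHT tumours, and here LIGHT replicate 3 fell among the controls. The log2 differences of the 3 ratios were 0.67, 0.46 and 0.36. Exact two-sided permutation tests gave p = 0.1, 0.1 and 0.2, where 0.1 is the smallest p that 20 assignments allow (0.11, 0.11 and 0.2 after Benjamini-Hochberg adjustment over 11 ratios).

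**Figure D3:**
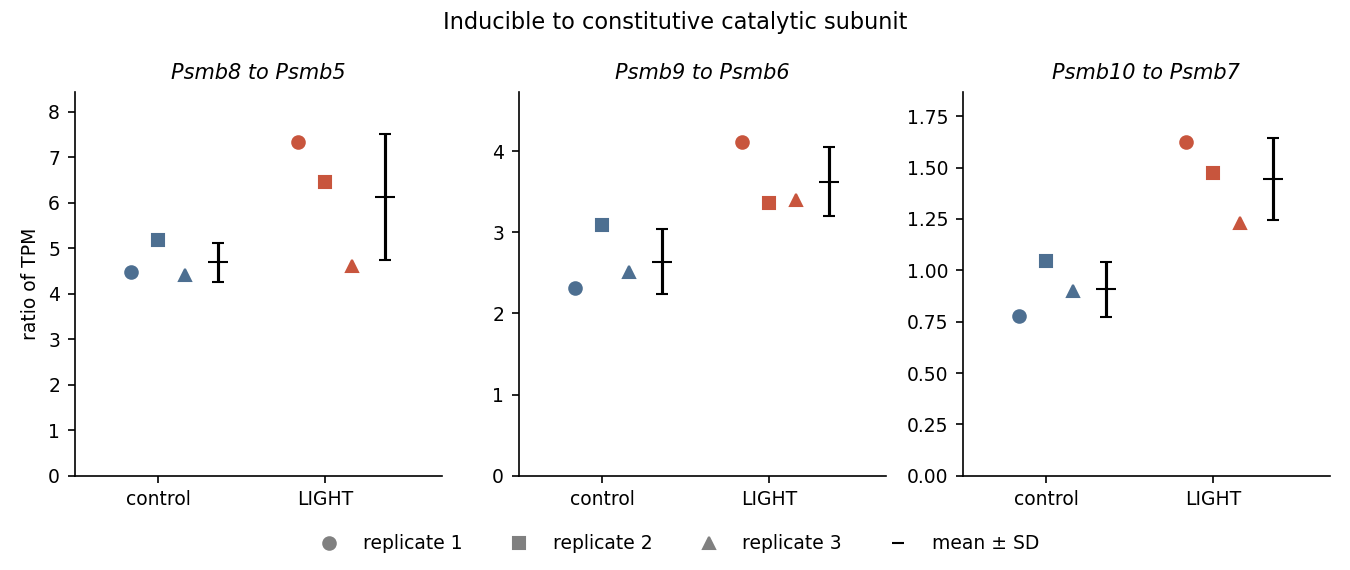
Ratio of TPM of each inducible catalytic subunit to the constitutive subunit it replaces, in each control and LIGHT library, with mean ± SD. The LIGHT libraries lie above the control libraries for Psmb9 to Psmb6 and Psmb10 to Psmb7, while LIGHT replicate 3 overlaps the controls for Psmb8 to Psmb5.

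Nlrc5, the class I transactivator (chromosome 8, 94434335 to 94527272), was the least abundant of the 10 genes. It was at 38.3, 40.4 and 34.8 TPM in the control libraries and 69.8, 45.0 and 46.9 TPM in the LIGHT libraries. All LIGHT libraries were above the controls, but 1 of them, LIGHT replicate 1, stood far above the others. Its difference of 0.47 on the log2 scale (SE 0.17, limma adjusted p = 0.0774) missed the threshold in this fit and in all 16 other settings, and it was 0.28 without LIGHT replicate 1. Ciita, the corresponding transactivator of class II genes, rose from 3.99 ± 1.45 to 13.5 ± 4.41 TPM (mean ± SD, n = 3 each; log2 fold change 1.53, limma adjusted p = 0.00693).

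Of the RFX subunits that Nlrc5 and Ciita both use, Rfx5 rose from 14.8 to 24.6 TPM (limma adjusted p = 0.0193). Rfxap was at 10.4 and 8.62 TPM and Rfxank at 7.09 and 6.73 TPM, and neither passed. Of the 12 interferon and NF-kB inputs 9 rose and 0 fell, where 17.7% and 5.41% of all tested genes did. Ifng, interferon gamma itself, went from 5.43 to 15.8 TPM (limma adjusted p = 0.017). The transcription factors Irf1 and Irf2 went from 219 to 351 and from 28.9 to 39.5 TPM (limma adjusted p = 0.0236 and 0.0331). Relb, a subunit of the NF-kB branch below the lymphotoxin beta receptor, went from 26.7 to 57.7 TPM (limma adjusted p = 0.0011).

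Among the 5 genes of 9942 candidates whose standardised profile over the 6 libraries was nearest to that of Nlrc5 were Helz2, Ube2q1, Iqce and Dtx3l (root mean square difference over the 5 genes 0.0877 to 0.129 SD). For B2m they were Scpep1, Tifa, Exog, Ms4a4c and Ly6i (0.161 to 0.241 SD). Likeness over 6 libraries was not tested against random matches, and it does not show shared regulation.

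To set the heavy chains against the other genes without the effect of scaling, each gene was divided by the summed TPM of H2-K1 and H2-D1 in its library. All 8 other genes had a higher ratio in every LIGHT library than in any control library, as did 31.0% of 13165 tested genes. The 8 ratios share 1 denominator and are not separate results. Tapbp per heavy chain was 0.0346, 0.0352 and 0.0333 in the control libraries and 0.0622, 0.0551 and 0.0577 in the LIGHT libraries. That was the ratio whose groups lay furthest apart relative to their spread, with a log2 difference of 0.76 and a pooled SD of 0.07. Tap2 per heavy chain was 0.0141, 0.0159 and 0.0130 in control tumours and 0.0294, 0.0254 and 0.0251 in LIGHT tumours, a log2 difference of 0.89. Psmb10, Nlrc5, Tap1, Psmb8 and Psmb9 differed by 0.64, 0.52, 0.50, 0.45 and 0.38 on the log2 scale.

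B2m per heavy chain had the smallest difference, 0.22, with values of 1.66, 1.66 and 1.87 in control tumours and 2.15, 2.01 and 1.89 in LIGHT tumours. The nearest control and LIGHT libraries were separated there by far less than the spread within each group. Each of the 8 ratios had an exact two-sided permutation p = 0.1, the smallest possible (0.11 adjusted over the 11 ratios).

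**Figure D4:**
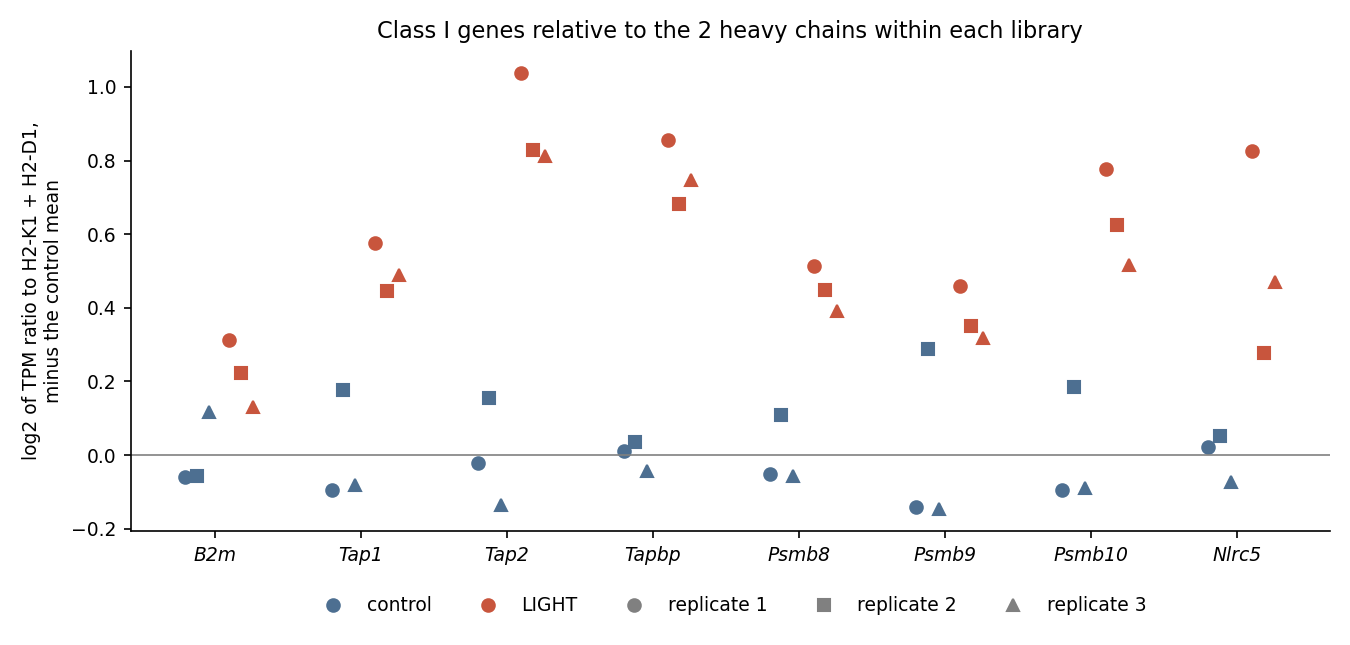
Log2 ratio of the TPM of each gene to the summed TPM of H2-K1 and H2-D1 in the same library, minus the control mean of that gene. Points are libraries, coloured by group and shaped by replicate. Every LIGHT point lies above every control point of its gene, by the widest margin for Tap2 and Tapbp and the narrowest for B2m and Psmb9.

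Most of the 10 genes ranked the libraries of a group in the same way. LIGHT replicate 1 was the highest LIGHT library for 10 of 10 genes and LIGHT replicate 3 the lowest for 9. Control replicate 2 was the highest control library for 9 genes and control replicate 3 the lowest for 9. The coefficient of variation within a group was smallest for H2-K1 in control tumours (1.94%) and largest for Nlrc5 in LIGHT tumours (25.6%).

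Markers of several leukocyte classes also differed between the groups. The counts below stand beside 17.7% higher and 5.41% lower over all tested genes. All 6 pan-leukocyte markers rose, and their summed level was 404 to 654 TPM in the control and 982 to 1246 TPM in the LIGHT libraries. Of 9 T cell markers 8 rose (summed 66.9 to 163 against 252 to 304 TPM), with control replicate 2 the highest control library. Of 8 macrophage markers 4 rose (606 to 701 against 964 to 1331 TPM), and 0 of 6 B cell markers passed the filter on low values (0.30 to 0.98 against 1.35 to 1.84 TPM). Of 5 tested neutrophil markers limma called 0 (0 at an unadjusted p under 0.05), and LIGHT replicate 2 was lowest in their summed level (1375 to 1770 against 419 to 2961 TPM). That sum is mostly S100a8 and S100a9 (control means 827 and 686 TPM), and other markers of the list did not share its order. In LIGHT replicates 1, 2 and 3 Retnlg was at 8.32, 33.7 and 21.2 TPM. Csf3r was at 12.2, 23.2 and 23.3 TPM there, and Cxcr2 at 2.16, 3.27 and 4.51 TPM. No marker of these lists was at 0 in every library, though Ms4a1, Pax5, Cr2 and Ly6g were at 0 in some. The 8 squamous epithelial markers summed to 23900 to 27910 TPM in control and 16250 to 22600 TPM in LIGHT tumours, and 1 of them fell, Krt6a. At an unadjusted p under 0.05 limma had 3 of the 8 lower and 1 higher, Epcam. Of 4 tested natural killer cell markers 3 rose, and of 2 tested dendritic cell markers 1 rose. Of 6 endothelial markers 1 rose, Vwf, a share near that of all tested genes (summed 26.4 to 51.9 against 43.0 to 85.9 TPM). Of 6 fibroblast markers limma called 0, also at an unadjusted p under 0.05 (262 to 380 against 301 to 499 TPM). Tongue muscle and blood also varied: the skeletal muscle markers summed to 2649 to 4565 TPM in control and 4100 to 7175 TPM in LIGHT tumours (limma called 0 of 10, with 5 higher at an unadjusted p under 0.05), and the red blood cell markers to 70.0 to 453 and 119 to 2086 TPM (0 of 4, and 0 unadjusted). In bulk tumour RNA, the number of cells of a type and the RNA per cell cannot be told apart, and the part of these cells in the class I values was not tested.

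The neighbouring gene families gave a wider range. Of 8 tested class II genes 8 rose, at a median of 1.24 on the log2 scale, and 2 of the 10 listed did not pass the filter. Of 10 tested nonclassical class I genes 6 rose, with a median of 0.40. They included H2-Q7 (266 to 366 TPM), H2-T23 (418 to 594 TPM) and H2-M3 (20.9 to 36.0 TPM), while H2-Q4, at 468 and 461 TPM, did not pass. Between Tapbp and H2-D1 on chromosome 17 (33919478 to 35267497), 24 of 79 tested genes rose and 2 fell. These are 30.4% and 2.53%, against 17.7% and 5.41% of all tested genes. Of the 24, 4 are genes described here. Class II genes already counted above are also among the 24: H2-Aa, H2-Ab1, H2-Eb1, H2-DMa, H2-DMb1, H2-DMb2 and H2-Oa. Both ends of the interval were set by genes described here, and the share without the class I and class II genes was not computed. The 30.4% therefore does not show a rise of the region beyond these genes.

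Reads from heavy chain genes can be shared with their near copies. Of all windows of 100 bases in GENCODE M21 transcripts, 0.957% of those of H2-K1 and 3.59% of those of H2-D1 also occurred in another gene, mostly in other class I genes. With windows of 50 bases the shares were 9.63% and 12.8%, while B2m, Psmb9, Psmb10 and Nlrc5 shared none. How shared reads were assigned is not given in the sources used here, so the heavy chain values, and those of H2-Q and H2-T genes, are less certain than the rest.

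The share of higher calls depended on the scaling: higher genes were 76.6% of all calls with the deposited TPM, 45.6% with trimmed-mean factors and 43.6% with quantile scaling. Over the tested genes as a whole the median moved from 0.09 to -0.04 under both. Relative to that median, Tap2 was 0.76, 0.75 and 0.82 higher on the log2 scale under the 3 scalings and Tapbp 0.63, 0.62 and 0.65 higher. H2-K1 was at -0.18, -0.19 and 0.04 relative to the median, and H2-D1 at -0.04, -0.06 and 0.11. The 8 genes other than the heavy chains kept a positive fold change in all 16 other settings.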

How the data were processed

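Per the labels' protocols, Trizol was used on tumour tissue and ribosomal RNA was removed before library preparation. Per the submitters' processing notes, HISAT, Bowtie2 and GRCm38.p6 were used, without roles or versions. As to quantifier, annotation and shared reads, the method is not given in the sources used here. Values per gene, in TPM, are as the authors deposited them for 18437 genes, rounded to 2 decimals, in 1 column per library per the file headers. All columns have the same total, so depth is unknown and counting intervals could not be computed. Of the symbols, 18361 matched the RefSeq gene table of GRCm38.p6, among them the 10 genes described.

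The filter kept 13167 genes, those reaching 1 TPM in 3 or more libraries, and the 10 genes passed it in both groups. Log2(TPM + 1) values went into limma 3.58.1 (R 4.3.3; lmFit, then eBayes with trend), two-sided, with p-values adjusted by Benjamini-Hochberg over every gene kept and called under 0.05. This scale understates changes of low genes. Ratios within a library had exact permutation tests on log2 values. Genes named are the 10 members, a fixed set of pathway genes, Tnfsf14, and the 5 profiles nearest to Nlrc5 and to B2m at a mean of 5 TPM or more. The values of 2 of these genes are not reported here. H2-Q7, H2-T23, H2-Q4, H2-M2, H2-M3, Krt5, Krt14, the neutrophil markers named and the motifs were picked after values were seen. Members and lists were chosen with earlier results of these data known. Promoters were searched in Python 3.11.15, figures were drawn with matplotlib 3.10.9, and the fit was tested on simulated data.

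Alternatives were pseudocounts of 0.1 and 0.5, no filter, a 5 TPM filter, trimmed-mean factors, quantile normalization, leaving out each library, a replicate block, no trend, and a skeletal muscle or red blood cell covariate (the mean of that list).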

Additional observations from a re-analysis of the deposited data

How the results depend on the processing

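The number of class I genes called higher, 5 with the deposited values, was 3 with no filter on low values, 2 with trimmed-mean factors, quantile normalization or the red blood cell covariate, and 1 (Tapbp) with the skeletal muscle covariate. It ranged from 2 to 6 with each library left out, and no class I gene was called lower in any of the 16 other settings. H2-D1 changed sign with trimmed-mean factors, to -0.091. Over all genes, 2325 higher calls became 1399 with quantile normalization, 584 with the muscle and 976 with the red blood cell covariate, and 712 lower calls became 1968 with trimmed-mean factors, 1811 with quantile normalization, 91 with the muscle and 207 with the red blood cell covariate. With a library left out they ranged from 1145 to 1888 and from 314 to 773, moving by over 1.5 times without control replicate 3 or LIGHT replicate 2 or 3 and, for lower calls, also without control replicate 1 or 2. The covariates widened the median SE of the class I genes from 0.12 to 0.18 and 0.15, at median log2 fold changes of 0.53 and 0.44 against 0.44. Why calls were lost with the covariates was not tested. The 11 ratios kept their direction in all settings run.

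The labels do not say whether the replicate numbers pair the samples. Deviations of same-numbered control and LIGHT libraries correlated at 0.37, 0.24 and 0.01, and not every library correlated best with its own number. With 3 libraries a group these correlations cannot decide whether the samples were paired. With the replicate block 2325 genes were higher and 907 lower, and the same 5 class I genes were called. With 3 libraries a group and unknown depth, the fit leaves changes under about the size of the intervals given undecided.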
